A study of Mus musculus with 16 samples.

Results

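The mRNA cytosines described here lie in runs of cytosines: stretches of 5 or more consecutive positions of one transcript that are all listed as cytosines in the bisulfite sequencing tables of mouse embryonic stem (ES) cells. A cytosine was taken where its position in the transcript was over 100 and at least 10 reads covered it in each of 6 libraries, and the run itself was read from all positions listed in any of these libraries. The rule found 8521 cytosines in 1803 runs of 1157 transcripts, from 1156 genes and 1 transcript with no symbol. They were taken from 709414 cytosines of 5851 transcripts past the same coverage and position limits, and 4938637 cytosines of 15330 transcripts were listed in all. No measured conversion entered the rule. The comparison set was 379557 isolated cytosines of 5786 transcripts, which passed the same limits and had no listed cytosine on either side.

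The libraries came from J1 mouse ES cells that lacked Dnmt2 (Dnmt2-/-, 3 libraries) and from wild-type J1 ES cells (3 libraries). J1 is a male mouse ES cell line. Both genotypes were grown on mouse embryonic fibroblast feeders with serum and leukaemia inhibitory factor, and the labels describe the feeders as removed by differential attachment before RNA was taken. Libraries held RNA longer than 200 nt, depleted of ribosomal RNA, fragmented, bisulfite treated and read as paired ends. The labels do not say whether the 3 libraries of a genotype came from separate cultures or clones, so p-values measure the spread between these libraries, which may be technical. Dnmt2 (gene symbol Trdmt1) is an RNA methyltransferase known for methylating a cytosine in the anticodon loop of aspartate transfer RNA. From position 200 of the Trdmt1 transcript, 0, 0 and 0 of 154 cytosines were listed in the Dnmt2-/- libraries, against 95, 127 and 48 in the wild-type libraries. Summed coverage over listed cytosines ranged from 37786723 (wild-type replicate 3, the shallowest library) to 143488903 reads (wild-type replicate 2). Of 8 ES cell marker mRNAs, each by its best-covered transcript, 6 had a mean coverage of 21.5 reads or more in every library (Pou5f1, Sox2, Zfp42, Dppa5a, Tdgf1 and Lin28a), whereas Nanog was at 1.35 to 13.1 and Esrrb at 0 to 3. Of 8 fibroblast marker mRNAs, Postn and Lum were not listed, and Col1a1 reached the highest value in a single library. Col1a1 had 1.87 to 13.4 reads, a range like that of Nanog, and Col1a2 had 3.83 to 10.1. Both were lowest in Dnmt2-/- replicate 3 and highest in wild-type replicate 2. The part of fibroblast RNA in the results was not tested.

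Bisulfite turns unmethylated cytosine into uracil, which is read as thymine, whereas 5-methylcytosine resists and is read as cytosine. Each cytosine was measured by its non-conversion, that is, the percentage of its reads in which it was still a cytosine. Non-conversion can come from methylation or from incomplete chemical conversion, and a single bisulfite table cannot tell them apart. Consecutive cytosines are read by nearly the same molecules, so the cytosines of one run are not independent measurements. Runs of cytosines in RNA are known as binding sites of the poly(C)-binding proteins, a family with roles in splicing, stability and translation of mRNAs.

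Runs were mostly short and spread thinly. Runs of 5 numbered 1531 with 7029 measured cytosines, runs of 6 numbered 232 with 1249, and runs of 7 or more numbered 40 with 243. A single run was found in 798 of the 1157 transcripts, and 66 transcripts held 4 or more. Fasn, which encodes fatty acid synthase, and Marcksl1, which encodes an actin-regulating substrate of protein kinase C, held 9 runs each. Mycn, which encodes the transcription factor N-Myc, held 8. Mature mRNA is exonic throughout. Whether a run lies in a coding or an untranslated stretch was not analysed here.

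The runs on which the results turn are shown as cytosine maps, 5′ to 3′, numbered along the RefSeq transcript and written on the strand of the mRNA, with the chromosome of the gene from the RefSeq annotation (GRCm38.p6). Capital C marks a cytosine of the run, lower-case c another listed cytosine, and n a position at which no cytosine is listed. The first set holds runs with high non-conversion.
Cep170b mRNA, gene on chromosome 12, positions 3032 to 3052: nnnnnncnCCCCCnnnccncc
Samd1 mRNA, gene on chromosome 8, positions 518 to 538: ccnccncnCCCCCnnccncnn
Mycn mRNA, gene on chromosome 12, positions 707 to 727: nccncnnnCCCCCnnncnncn
Pdzd4 mRNA, gene on chromosome X, positions 779 to 799: nnncncnnCCCCCnncnncnn
Ppp1r14b mRNA, gene on chromosome 19, positions 240 to 260: nnccccnnCCCCCnnnccnnn
Lin28a mRNA, gene on chromosome 4, positions 3293 to 3314: nccccccnCCCCCCnnnncnnn
Pou5f1 mRNA, gene on chromosome 17, positions 97 to 117: ccnncncnCCCCCnccnnnnn

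The second set holds the longest fully measured run (Ncapd2), 3 of the most deeply read runs (Eef2, Actb, Dppa5a), a run of very low non-conversion (Erp29) and a run in the mRNA of a poly(C)-binding protein (Pcbp2).
Ncapd2 mRNA, gene on chromosome 6, positions 4347 to 4373: nnncnnnnCCCCCCCCCCCnnnnnnnn
Eef2 mRNA, gene on chromosome 10, positions 2515 to 2535: cnnnccnnCCCCCnnnncnnn
Actb mRNA, gene on chromosome 5, positions 394 to 415: cnccnnnnCCCCCCnnnncccn
Dppa5a mRNA, gene on chromosome 9, positions 125 to 146: nnnnnnnnCCCCCCnnnnnnnn
Erp29 mRNA, gene on chromosome 5, positions 1087 to 1107: nnnnnncnCCCCCnnnnccnn
Pcbp2 mRNA, gene on chromosome 15, positions 731 to 753: cncccnnnCCCCCCCnnnnnncn

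A typical cytosine in a run was converted slightly more completely than an isolated one. Mean non-conversion of run cytosines was 1.53%, 1.60% and 1.33% in the Dnmt2-/- libraries and 1.39%, 1.24% and 1.56% in the wild-type libraries. Isolated cytosines had 1.98%, 1.98% and 1.51% in the Dnmt2-/- libraries and 1.77%, 1.54% and 1.62% in the wild-type libraries. Run cytosines were thus the lower kind in 6 of 6 libraries, by a gap that was widest in Dnmt2-/- replicate 1 and narrowest in wild-type replicate 3. Over the libraries, run cytosines averaged 1.44% ± 0.144 and isolated cytosines 1.73% ± 0.211 (SD, n = 6), a difference of -0.292 percentage points ± 0.145. The exact sign-flip permutation test over libraries gave its smallest possible p of 0.03125 (two-sided), which was 0.0625 after Benjamini-Hochberg adjustment over 6 contrasts and did not pass 0.05. Medians showed the same order: the median of the per-cytosine means was 1.22% for run cytosines and 1.58% for isolated ones.

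The difference was also present within transcripts. Across the 1157 transcripts that held both kinds, run cytosines averaged 1.41% ± 0.137 and isolated cytosines 1.75% ± 0.205 (SD, n = 6 libraries), a difference of -0.339 percentage points that was below 0 in 6 of 6 libraries (exact permutation p = 0.03125, adjusted p = 0.0625). Isolated cytosines in cytosine-rich surroundings, with 8 or more listed cytosines within 10 positions, lay between the other kinds. These 28272 cytosines averaged 1.58% ± 0.152 (SD, n = 6), and run cytosines were lower by a difference of -0.137 percentage points in 5 of 6 libraries (exact permutation p = 0.0625, adjusted p = 0.075). In wild-type replicate 3 the sign was the other way, with run cytosines at 1.56% and these isolated cytosines at 1.53%.

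**Figure D1:**
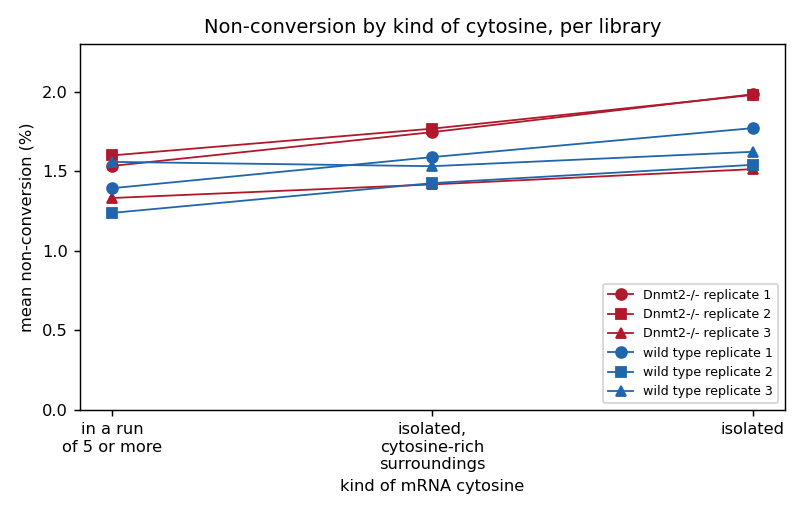
Mean non-conversion (%, y axis) of mRNA cytosines in a run of 5 or more, isolated in cytosine-rich surroundings, and isolated (x axis); each line joins the 3 means of one library. Run cytosines sit below isolated cytosines in all 6 libraries, at 1.24% to 1.60% against 1.51% to 1.98%.

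The number of cytosines nearby moved with the level. Among isolated cytosines, mean non-conversion over the 6 libraries was 1.89% where at most 1 other cytosine was listed within 10 positions, 1.72% at 4 or 5, and 1.57% at 10 or more. At 6 or 7 nearby cytosines, run cytosines averaged 1.33% (n = 2612) and isolated cytosines 1.66% (n = 79415). At 10 or more, the 2394 run cytosines averaged 1.55% and the 4309 isolated cytosines 1.57%. Run cytosines were the higher kind there only in the replicate 3 libraries of both genotypes. Medians of the per-cytosine means were 1.29% and 1.41%, and 0.459% and 0.0928% of the cytosines averaged 10% or more. A gap was seen along the whole transcript. Run cytosines averaged 1.54% against 1.86% for isolated cytosines at positions from 101 to 300, and 1.34% against 1.69% beyond position 1000. It was also seen among the most deeply read cytosines. Where the shallowest library had 50 or more reads, the 1013 run cytosines averaged 1.40% and the 49789 isolated cytosines 1.74%.

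By length, the level was lower at each step up to runs of 4 and close to flat beyond. Mean non-conversion over the 6 libraries was 1.73% for single cytosines, 1.64% in pairs, 1.53% in runs of 3, 1.44% in runs of 4, 1.44% in runs of 5 and 1.42% in runs of 6. Runs of 4, just outside the rule, were therefore level with those just inside it. Cytosines of runs of 7 or more had 1.81%, 1.62% and 1.25% in the Dnmt2-/- libraries and 1.26%, 1.23% and 1.95% in the wild-type libraries, a spread wider than for any shorter length. They were higher than cytosines in runs of 5 or 6 in 3 of 6 libraries and lower in the other 3, with a mean difference of 0.0782 percentage points ± 0.214 (SD, n = 6; exact permutation p = 0.4375). With a coverage minimum of 5 reads, which admitted 529 such cytosines, this difference was 0.364 percentage points, with an adjusted p of 0.0469 by the same exact test. Just inside the coverage limit, the 839 run cytosines with a lowest coverage of 10 reads averaged 1.42%, and the 955 just outside it, with 9 reads, averaged 1.30%.

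**Figure D2:**
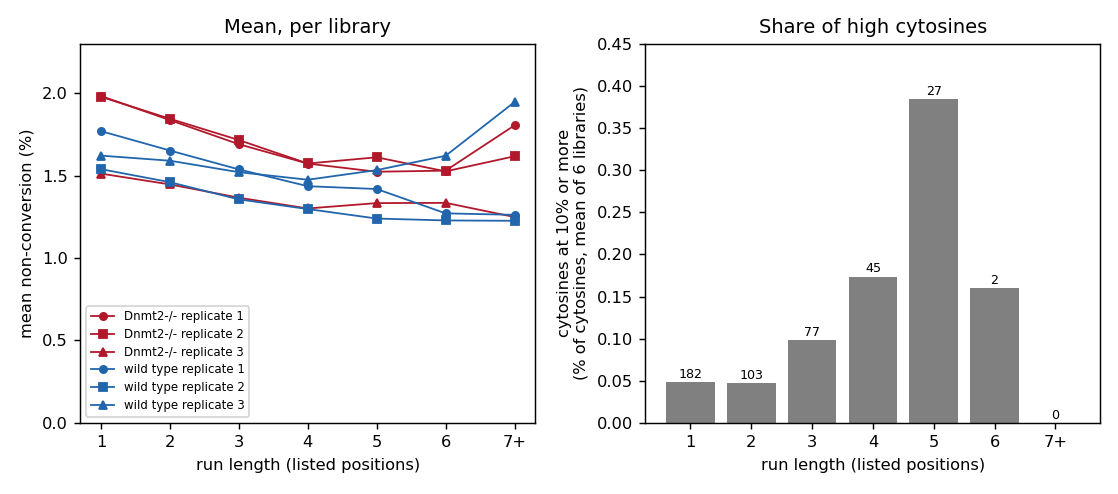
Left, mean non-conversion (%) against run length in listed positions, with 1 line per library; right, the percentage of cytosines whose mean over the 6 libraries was 10% or more, by run length, with the number of such cytosines above each bar. Means lie between 1.42% and 1.73% when averaged over the libraries, whereas the share of high cytosines is 0.0480% for single cytosines and 0.384% in runs of 5.

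Within runs of 5 or more, conversion was on average more complete at inner cytosines than at the ends. All positions were measured in 1487 runs with 7683 cytosines. Inner cytosines (n = 4709) averaged 1.39%, 1.45% and 1.26% in the Dnmt2-/- libraries and 1.32%, 1.16% and 1.47% in the wild-type libraries. The first and last cytosines together (n = 2974) averaged 1.77%, 1.83% and 1.46% in the Dnmt2-/- libraries and 1.55%, 1.38% and 1.74% in the wild-type libraries. Inner cytosines were lower than the ends in 6 of 6 libraries, with a mean difference of -0.280 percentage points ± 0.0814 (SD, n = 6; exact permutation p = 0.03125, adjusted p = 0.0625). The difference ranged from -0.380 to -0.201 over the libraries. The last cytosine of a run averaged 1.53% and the first 1.72%, a difference of -0.188 percentage points that was below 0 in 5 of 6 libraries (exact permutation p = 0.0625, adjusted p = 0.075), the exception being wild-type replicate 3 at 0.0142.

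Place by place, the 1275 fully measured runs of 5 had mean levels of 1.72%, 1.50%, 1.28%, 1.28% and 1.50% from the 5′ to the 3′ cytosine. The 185 runs of 6 had 1.73%, 1.52%, 1.20%, 1.11%, 1.20% and 1.74%. In runs of 6, the fourth cytosine had 0.972%, 1.16% and 1.19% in the Dnmt2-/- libraries and 1.08%, 1.08% and 1.17% in the wild-type libraries. Each of these values lay below the first cytosine of the same runs in the same library, which had 1.50% to 2.04%. The 5992 runs of 4 showed 1.64%, 1.40%, 1.30% and 1.42%, a shallower dip of the same shape. Other lengths did not have this shape. The 24721 runs of 3 had 1.60%, 1.51% and 1.48%. The 21 runs of 7 were highest at the second place (2.04%) and lowest at the last (1.27%). The first cytosine of a run of 5 (1.72%) was at the level of isolated cytosines as a whole (1.73%). Around runs of 5 or more, cytosines outside such runs averaged 1.79% at 11 to 20 positions before the run and 1.67% at 2 or 3 positions before it. Those 2 or 3 positions after a run were lower. They had 1.61%, 1.74% and 1.30% in the Dnmt2-/- libraries and 1.63%, 1.39% and 1.49% in the wild-type libraries. Each value was below the mean of all isolated cytosines in that library. The flanking cytosines included pairs and runs of 3 or 4, which averaged lower than isolated cytosines in any case, and the difference was not tested.

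**Figure D3:**
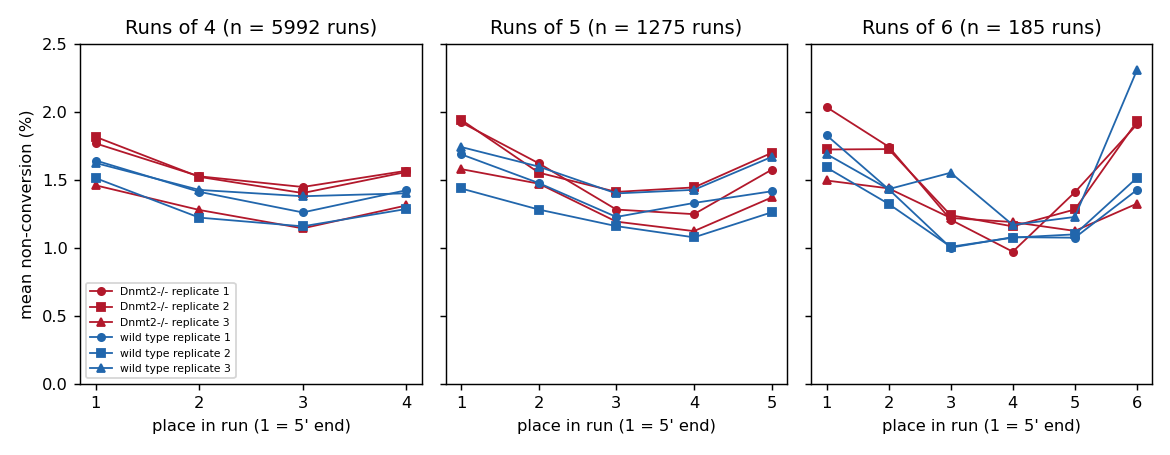
Mean non-conversion (%, y axis) by place in the run, counted from the 5′ end (x axis), for fully measured runs of 4, 5 and 6; each line is one library. In runs of 5 the lowest place is the third or the fourth in every library, with means over the 6 libraries of 1.28% in the middle of runs of 5 and 1.72% at their first cytosine.

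Most runs were alike, and a few stood far apart. Over the 1487 fully measured runs, the mean of a run had a median of 1.30%, an interquartile range of 1.02% to 1.62% and a maximum of 21.8%. Only 15 runs averaged 5% or more and 5 averaged 10% or more. At the level of single cytosines, 29 of 8521 run cytosines (0.340%) averaged 10% or more over the 6 libraries, beside 436 of all 709414 cytosines, the background of 0.0615%, and 182 of the 379557 isolated cytosines (0.0480%). These 29 lay in 9 runs of 8 mRNAs, so they amount to few independent stretches. By gene, they numbered 7 in Ppp1r14b, 5 each in Cep170b, Mycn and Samd1, 4 in Pdzd4, and 1 each in Cyb5r4, Lin28a and Nr2f6. The opposite tail was also fuller, with 7.87% of run cytosines and 4.70% of isolated cytosines showing no unconverted read in any library. These shares were 12.6% and 7.92% where the shallowest library had under 20 reads, and 2.11% and 1.17% from 20 to under 50. At 50 or more reads, 0 of 1013 run cytosines and 13 of 49789 isolated cytosines showed none, so this tail rested on shallow cytosines. In the 8 mRNAs, run cytosines (n = 123) averaged 4.77%, 5.35% and 6.22% in the Dnmt2-/- libraries and 5.02%, 3.18% and 7.96% in the wild-type libraries. Isolated cytosines of the same 8 mRNAs (n = 1032) averaged 2.20%, 2.34% and 1.71% in the Dnmt2-/- libraries and 1.78%, 1.69% and 1.87% in the wild-type libraries. These mRNAs were picked for their high run cytosines, so the higher run mean follows from the choice. In the other transcripts, run cytosines (n = 8398) averaged 1.38% and isolated cytosines (n = 378525) 1.73% over the 6 libraries.

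The highest runs were non-converted as blocks, with all of their cytosines high together. In Cep170b, which encodes a relative of the centrosomal protein Cep170, the run at positions 3040 to 3044 averaged 11.7%, 29.7% and 30.6% in the Dnmt2-/- libraries and 17.5%, 14.3% and 27.3% in the wild-type libraries. Every library was far above the mean of 1.59% over the 112 isolated cytosines of that mRNA, and the genotypes overlapped. From the 5′ to the 3′ cytosine the means were 19.2%, 21.2%, 23.7%, 23.0% and 22.1%. The 9 measured cytosines within 20 positions outside the run had 0.813% to 5.87%. Coverage was 11 to 49 reads, so a single library's value is coarse. At the middle cytosine, Dnmt2-/- replicate 3 had 12 unconverted of 36 reads and wild-type replicate 3 had 3 of 11, with exact 95% binomial intervals of 18.6% to 51% and 6.02% to 61%. Such intervals cover counting error only.

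Mycn had the best-covered of the high runs, with 47 to 237 reads at each cytosine of positions 715 to 719. Its run averaged 17.5%, 20.5% and 14.3% in the Dnmt2-/- libraries and 13.5%, 5.05% and 6.82% in the wild-type libraries. All 3 Dnmt2-/- values lay above all 3 wild-type values, at 17.5% ± 3.10 against 8.47% ± 4.48 (SD, n = 3 each). The exact permutation p was 0.1, the smallest that 3 against 3 can give. Among the 1487 fully measured runs, 7.13% had every Dnmt2-/- library above every wild-type library and 2.76% had the reverse. The 14 measured cytosines within 20 positions of the Mycn run had 0.772% to 5.96%, and the 245 isolated cytosines of the mRNA averaged 1.78%. Of its 40 run cytosines, only the 5 of this run reached 10%. The mRNA held 11 such cytosines in all, so others lay outside runs of 5 or more, 1 of them isolated.

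Samd1, which encodes a chromatin protein that binds unmethylated CpG islands, had a run at positions 526 to 530 with 22.5%, 8.85% and 7.40% in the Dnmt2-/- libraries and 18.8%, 9.03% and 22.0% in the wild-type libraries. The genotypes overlapped, and all 5 of its cytosines averaged between 11.7% and 17.4%. Its surroundings were less clear-cut, since 3 of the 20 measured cytosines within 20 positions of the run also averaged 10% or more. The Samd1 mRNA held 14 such cytosines in all, 5 of them in runs. Ppp1r14b, which encodes an inhibitor of protein phosphatase 1, had 2 high runs. The run at positions 248 to 252 had 12.4%, 13.0% and 7.72% in the Dnmt2-/- libraries and 14.8%, 3.60% and 17.7% in the wild-type libraries. The run at positions 298 to 302 had 5.02%, 4.38% and 21.7% in the Dnmt2-/- libraries and 2.48%, 4.30% and 19.1% in the wild-type libraries. Around the run at 248, 2 of the 10 measured cytosines within 20 positions also averaged 10% or more, and this mRNA held 14 such cytosines in all, 7 of them in runs. In the second run the replicate 3 library of each genotype stood high and the other 4 libraries were low.

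The replicate 3 libraries stood together in other runs as well. In Pdzd4, which encodes a PDZ-domain protein, the run at positions 787 to 791 had 7.28%, 5.44% and 24.0% in the Dnmt2-/- libraries and 5.28%, 4.02% and 31.7% in the wild-type libraries. Without both replicate 3 libraries its mean was 5.50%, against 12.9% with all 6. The second Ppp1r14b run was at 4.04% without them, against 9.50% with all 6. In Tfcp2l1, which encodes a transcription factor of the naive pluripotency network, wild-type replicate 3 alone was high: the run at positions 626 to 630 had 4.73%, 6.98% and 1.86% in the Dnmt2-/- libraries and 3.08%, 0.952% and 27.0% in the wild-type libraries. The same was seen in Pou5f1, which encodes the pluripotency factor Oct4, at positions 105 to 109. That run had 2.94%, 3.09% and 4.58% in the Dnmt2-/- libraries and 1.21%, 3.15% and 20.9% in the wild-type libraries. Leaving out wild-type replicate 3 brought the mean to 3.52% in Tfcp2l1 and 2.99% in Pou5f1. Wild-type replicate 3 had 14 or 15 reads at the Tfcp2l1 run and 30 or 31 at the Pou5f1 run. Wild-type replicate 1, which was low in both, had 12 or 13 and 30 to 37 reads there. Over all runs, without both replicate 3 libraries 25 run cytosines averaged 10% or more (0.293%, beside 0.0723% of all cytosines). Of these 25, 21 were among the 29 found with all 6 libraries.

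**Figure D4:**
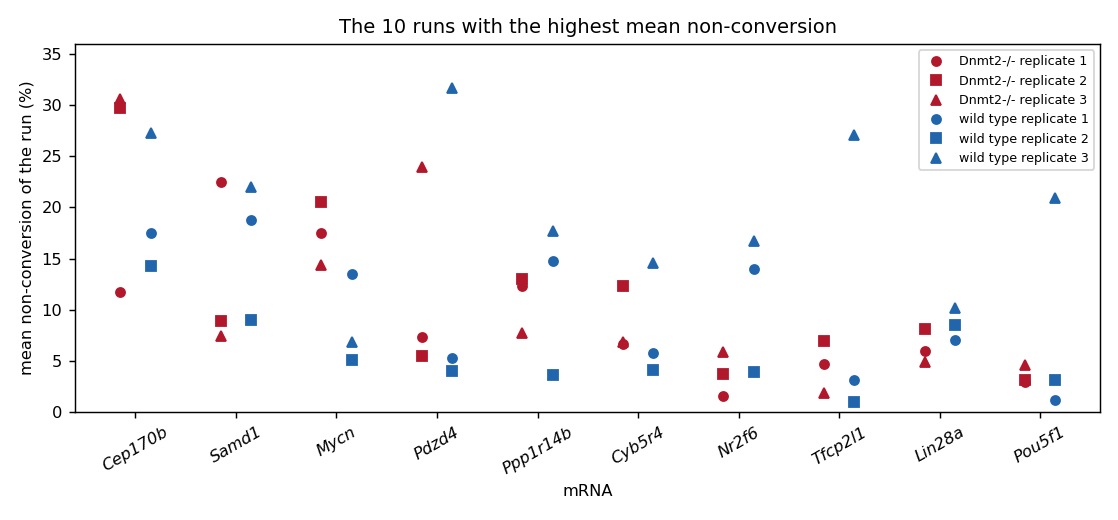
Mean non-conversion of the run (%, y axis) for the 10 fully measured runs, 1 per gene, with the highest mean over the 6 libraries (x axis, highest on the left); each point is one library, Dnmt2-/- left of wild type. Every library is above 10% in Cep170b, whereas Pdzd4 is high only in the replicate 3 libraries (24.0% and 31.7%) and Tfcp2l1 and Pou5f1 only in wild-type replicate 3.

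Lin28a differed from these blocks. It encodes an RNA-binding protein of ES cells that blocks maturation of let-7 microRNAs. Its run at positions 3301 to 3306 was ordinary at the first 5 cytosines, which averaged 1.11%, 0.556%, 1.96%, 3.30% and 0.450%, whereas the last averaged 37.2%. That last cytosine, position 3306, had 29.7% of 37 reads, 39.1% of 23 and 29.3% of 41 in the Dnmt2-/- libraries, and 23.5% of 17, 45.9% of 61 and 55.6% of 18 in the wild-type libraries. Exact 95% binomial intervals were 15.9% to 47.0%, 19.7% to 61.5% and 16.1% to 45.5% in the Dnmt2-/- libraries, and 6.81% to 49.9%, 33.1% to 59.2% and 30.8% to 78.5% in the wild-type libraries. All 6 libraries were high and the genotypes overlapped, at 32.7% ± 5.57 against 41.7% ± 16.4 (SD, n = 3 each). The 15 measured cytosines within 20 positions outside the run had 0% to 5.29%. Of the 29 high cytosines, it was the only one in whose run every other cytosine averaged under 5%.

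Of the remaining high runs, Cyb5r4, which encodes a cytochrome b5 reductase, had 6.62%, 12.3% and 6.82% in the Dnmt2-/- libraries and 5.71%, 4.13% and 14.6% in the wild-type libraries at positions 182 to 186. Nr2f6, which encodes an orphan nuclear receptor, had 1.52%, 3.71% and 5.83% in the Dnmt2-/- libraries and 13.9%, 3.88% and 16.8% in the wild-type libraries at positions 564 to 569. In Cyb5r4 the highest library of each genotype was a different replicate, and in Nr2f6 wild-type replicate 2 lay among the Dnmt2-/- values. The genotypes overlapped in both runs.

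A per-cytosine call was also made in each genotype: non-conversion of 10% or more in each of the 3 libraries, and above the library's background by a 1-sided exact binomial test, combined by Fisher's method, at an adjusted p under 0.05. In the Dnmt2-/- libraries, 21 of 16401 run cytosines were called (0.128%), beside a background of 0.0283% over all 1365927 cytosines tested. In the wild-type libraries, 9 of 8837 run cytosines were called (0.102%), beside a background of 0.0212% over 765735. Together 25 run cytosines in 11 runs of 11 mRNAs were called, and 5 were called in both genotypes: 4 of the Cep170b run and position 3306 of Lin28a. Of the 21 called in the Dnmt2-/- libraries, 9 could not be tested in the wild-type libraries at 10 reads and 7 were tested and not called. The 5 Mycn cytosines were among these 7. At a coverage minimum of 20, 8 of 8197 run cytosines were called in the Dnmt2-/- libraries (0.0976%), beside 0.0295% of all. In the wild-type libraries 1 of 3715 was called there (0.0269%), close to the 0.0224% of all. Without Dnmt2-/- replicate 1 or 2 the count was 33 or 32 (0.191% and 0.172%, beside 0.0353% and 0.0362% of all). Without wild-type replicate 2 or 3 it was 15 or 17 (0.169% and 0.0932%, beside 0.0309% and 0.0240% of all).

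The call added 1 strong block that fell outside the rule for want of reads. In Junb, which encodes a subunit of the AP-1 transcription factor, 5 cytosines of a run of 6, at positions 1407 to 1411, were called in the Dnmt2-/- libraries. Their means there were 44.4%, 43.8%, 43.7%, 46.7% and 43.6%, on 11 to 18 reads a library. In wild-type replicate 1 the same 5 cytosines had 25%, 35.7%, 38.5%, 28.6% and 38.5% on 12 to 14 reads, and in wild-type replicate 2 they had 0%, 0%, 10.5%, 5.26% and 0% on 19 reads. The wild-type libraries thus disagreed with each other, and wild-type replicate 3 had under 10 reads. Counting 3 reads as the limit, 0 of 19 still allows a level of up to 15.8%. Nectin2, which encodes a cell adhesion molecule, had 2 called cytosines in the Dnmt2-/- libraries, with means of 26.0% and 24.6%. Trim71, which encodes an RNA-binding protein of early development, had 1 at 17.5%, Hcfc1, which encodes a chromatin-bound coregulator, 1 at 15.9%, and Rcc2 1 at 13.2%.

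Against this tail stood the runs with the most reads. Eef2, which encodes translation elongation factor 2, had at least 1402 reads at each cytosine of its run in every library. That run averaged 1.14%, 1.40% and 0.960% in the Dnmt2-/- libraries and 1.06%, 1.06% and 0.818% in the wild-type libraries, below the 1.73% of the mRNA's 377 isolated cytosines. Actb, which encodes beta-actin, had 1.38%, 1.56% and 1.20% in the Dnmt2-/- libraries and 1.30%, 1.45% and 1.49% in the wild-type libraries over a run of 6. Its first 5 cytosines stepped down from the 5′ end, at 1.84%, 1.50%, 1.29%, 1.24% and 1.04%, and the last had 1.47%. Dppa5a, which encodes an RNA-binding protein of pluripotent cells, averaged 1.28% ± 0.192 in the Dnmt2-/- libraries and 1.16% ± 0.209 in the wild-type libraries (SD, n = 3 each). Its 2 end cytosines, at 1.38% and 1.39%, were the highest of its 6. The ribosomal protein mRNAs Rps10 and Rps14 completed the 5 deepest, at 0.861% ± 0.289 and 1.20% ± 0.488 in the Dnmt2-/- libraries, and 0.931% ± 0.141 and 1.14% ± 0.0802 in the wild-type libraries.

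The lowest runs with at least 50 reads in every library included those of Erp29, Ap2a2, Paics and Rps15. Erp29, which encodes a protein of the endoplasmic reticulum lumen, averaged 1.04%, 0.50% and 0.618% in the Dnmt2-/- libraries and 0.766%, 0.519% and 0.328% in the wild-type libraries. The 74 isolated cytosines of its mRNA averaged 1.92%. Paics, which encodes an enzyme of purine synthesis, had 0.690%, 0.843% and 0.778% in the Dnmt2-/- libraries and 0.572%, 0.866% and 1.02% in the wild-type libraries, with 1.56% over the isolated cytosines of the mRNA. In both mRNAs every library's run mean was below the mean of the isolated cytosines, and the genotypes overlapped. Both runs were picked for their low means, so the lower run mean follows from the choice.

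The longest runs did not stand out. The longest fully measured run, 11 cytosines in Ncapd2, which encodes a condensin subunit, averaged 1.99% ± 0.921 in the Dnmt2-/- libraries and 1.88% ± 1.24 in the wild-type libraries (SD, n = 3 each), beside 1.77% over the isolated cytosines of the mRNA. The cytosine at place 3 had the highest mean, 5.69%, and that at place 7 was at 0% in every library. The runs of 8 in Mdc1, Ppp6r1, Cand1 and Trim37 had Dnmt2-/- means of 1.13% to 2.02% and wild-type means of 0.653% to 1.96%. No cytosine in a run of 7 or more averaged 10%.

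The mRNAs of the poly(C)-binding proteins themselves held 4 runs: 2 in Pcbp1 and 1 each in Pcbp2 and Pcbp4, with none in Pcbp3 or Hnrnpk past the limits. Pcbp2 had a run of 7 with 2.84%, 2.42% and 1.89% in the Dnmt2-/- libraries and 0.340%, 0.757% and 0.833% in the wild-type libraries. These groups did not overlap, at 2.38% ± 0.477 against 0.643% ± 0.265 (SD, n = 3 each; exact permutation p = 0.1, the smallest possible), which places the run among the 7.13% of runs with that order. The Pcbp1 runs averaged 1.04% and 0% in the Dnmt2-/- libraries and 1.11% and 0.978% in the wild-type libraries. Pcbp4 had 2.11% ± 1.50 in the Dnmt2-/- libraries and 2.22% ± 0.801 in the wild-type libraries.

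Loss of Dnmt2 was not accompanied by a detectable difference in run cytosines. Their mean non-conversion was 1.49% ± 0.140 in the Dnmt2-/- libraries and 1.40% ± 0.160 in the wild-type libraries (SD, n = 3 each), a difference of 0.0915 percentage points (exact permutation p = 0.6, with 0.1 the smallest possible). Isolated cytosines had 1.83% ± 0.271 in the Dnmt2-/- libraries and 1.64% ± 0.117 in the wild-type libraries, a difference of 0.181 (exact permutation p = 0.4). The gap between run and isolated cytosines was -0.337 ± 0.140 percentage points in the Dnmt2-/- libraries and -0.248 ± 0.164 in the wild-type libraries, and these gaps differed by -0.0896 (exact permutation p = 0.5). Without wild-type replicate 3 that last difference was 0.0101.

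Single cytosines were compared with edgeR's quasi-likelihood test on unconverted and converted reads, for the 8193 cytosines with a mean of 5% or more. It called 0 cytosines, a background of 0%, and 0 of the 123 run cytosines among them. An unadjusted p under 0.05 was reached by 5 of the 123 and by 202 of the 8193. The smallest adjusted p of a run cytosine was 0.999. On simulated data with 8193 cytosines, the same test recovered 4 of 100 cytosines changed by 2 log2 odds units and 37 of 100 changed by 4, so moderate differences at single cytosines were below what it can call. The changed cytosines were drawn from those with high non-conversion, and all were lowered in the Dnmt2-/- libraries. Recovery at the lower levels of most of the 123 run cytosines was not tested. Fisher's exact test on reads summed over libraries, which ignores the spread between them, called 27 of the 8193, of which 2 were run cytosines. Both were in the Mycn run and higher in the Dnmt2-/- libraries. Position 718 of Mycn had 19.3%, 22.9% and 15.0% in the Dnmt2-/- libraries and 10.7%, 3.60% and 5.77% in the wild-type libraries. Position 717 had 14.8%, 20.8% and 13.5% in the Dnmt2-/- libraries and 11.9%, 2.17% and 4.0% in the wild-type libraries. By edgeR their unadjusted p-values were 0.00418 and 0.00725, both with an adjusted p of 0.999.

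The undepleted long RNA, which is dominated by ribosomal RNA, gave a second view of runs in libraries the rule did not use (2 of each genotype). It held 110 run cytosines in 20 runs, of which 27 were in 18S, 78 in 28S and 5 in another reference. They averaged 2.20% and 2.16% in the Dnmt2-/- libraries and 2.29% and 2.16% in the wild-type libraries. The 1032 isolated cytosines averaged 2.00% and 2.00% in the Dnmt2-/- libraries and 2.10% and 2.04% in the wild-type libraries. Pooled over references, run cytosines were thus the higher kind in all 4 libraries, but of the 3 references with runs only 18S showed this order by its means. In 18S, run cytosines had 2.34% and 2.42% in the Dnmt2-/- libraries and 2.57% and 2.53% in the wild-type libraries, and isolated cytosines had 1.38% and 1.41% in the Dnmt2-/- libraries and 1.46% and 1.41% in the wild-type libraries. In 28S, run cytosines had 2.25% and 2.17% in the Dnmt2-/- libraries and 2.29% and 2.12% in the wild-type libraries, and isolated cytosines had 2.25% and 2.26% in the Dnmt2-/- libraries and 2.36% and 2.27% in the wild-type libraries. By medians over cytosines both references changed order in all 4 libraries. The 18S medians were 0.987% to 1.12% in runs and 1.16% to 1.23% for isolated cytosines. The 28S medians were 1.68% to 1.91% in runs and 1.44% to 1.50% for isolated cytosines. The run in the other reference was below its isolated cytosines in all 4 libraries, at 0.719% to 0.873% against 1.88% to 2.00%. Inner cytosines of the runs had 2.34% and 2.13% in the Dnmt2-/- libraries and 2.44% and 2.19% in the wild-type libraries, and end cytosines had 1.96% and 2.23% in the Dnmt2-/- libraries and 2.03% and 2.11% in the wild-type libraries. Pooled over references, no dip inside the run was seen in 3 of these 4 libraries, the exception being Dnmt2-/- replicate 2. The references differed here. Inner cytosines were above the ends in all 4 libraries in 18S, and below them in all 4 in the other reference. In 28S they were below the ends only in the replicate 2 library of each genotype. None of the 110 averaged 10% or more, against 10 of the 1032 isolated cytosines. No test was made on these 4 libraries.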

How the data were processed

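Bisulfite sequencing tables of the long RNA fraction were used: 6 libraries depleted of ribosomal RNA and, for description, 4 undepleted ones. Small RNA tables were not used. Each table lists cytosines by reference and position with a coverage, a count of reads made by the authors, and an unconversion ratio, deposited by the authors as a fraction per cytosine. BSMAP and the build mm9 are named per the submitters' processing notes; which version and which filters were applied is not stated. The lowest deposited coverage in an mRNA table was 3 reads. Unconverted reads were recovered as coverage times ratio, which gave whole numbers within 0.01 everywhere.

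Members, lists and tests were chosen with earlier results of these data known. In 2466 of 3560 transcripts with enough listed positions near the start, every listed position was C in the RefSeq promoter table (GRCm38.p6), where C made up 26.6% of bases. Symbols matched 15239 of 15330 references. Copies of a molecule cannot be told apart.

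The measure was the mean over cytosines of per-cytosine non-conversion, per library. Contrasts between kinds of cytosine used an exact sign-flip permutation test over 6 libraries, and genotype an exact permutation test of 3 against 3, both two-sided. With 6 contrasts adjusted together by Benjamini-Hochberg, 3 at the smallest p give an adjusted 0.0625. edgeR 4.0.16 in R 4.3.3 modelled both read states of each cytosine (library, conversion state, and genotype by state); it was tested on simulated data. Runs were named by rule: the 10 highest, 5 longest, 5 deepest, 5 lowest with at least 50 reads, 1 per gene, and those of poly(C)-binding protein mRNAs. Of the 5 lowest, 1 is not reported here. The second Ppp1r14b run was named after its values were seen. Replicate libraries shared identical coverage and unconverted reads at no more than 3.46% of cytosines. Alternatives were other coverage, position and run limits, pooled reads, medians, 1 transcript per gene, and left-out libraries.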

Additional observations from a re-analysis of the deposited data

How the results depend on the processing

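Run cytosines stayed below isolated cytosines, and inner below end cytosines, under every alternative run. Because adjusted p-values depend on how many of the 6 contrasts reach the smallest p, several alternatives took them under 0.05 (0.0375 or 0.0469). For run against isolated cytosines these were -0.268 percentage points at a coverage minimum of 5, -0.305 at 20, -0.284 without a position limit, -0.292 for runs of 4 or more, -0.420 against isolated cytosines with none listed within 3, -0.333 with reads pooled and -0.332 with cytosines at 10% or more left out. Within transcripts the same 7 settings gave -0.320, -0.348, -0.334, -0.317, -0.501, -0.333 and -0.364. Against isolated cytosines in rich surroundings the values were -0.148 at a coverage minimum of 20, -0.136 for runs of 4 or more, -0.199 with 6 or more listed within 10, -0.167 pooled and -0.174 with high cytosines left out. Inner minus end cytosines gave -0.219 at a coverage minimum of 5, -0.251 at 20, -0.273 without a position limit, -0.277 pooled and -0.282 with high cytosines left out. Last minus first cytosines gave -0.239 at 20, -0.183 without a position limit, -0.198 pooled and -0.233 with high cytosines left out. Runs of 7 or more minus shorter runs gave 0.364 at a coverage minimum of 5; the cause was not tested.

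Leaving out 1 library gave -0.344 to -0.263 for run against isolated cytosines, -0.399 to -0.307 within transcripts, -0.172 to -0.121 against rich surroundings, -0.295 to -0.257 for inner against end cytosines, -0.196 to -0.158 for last against first, and 0.0400 to 0.172 for long against short runs; 5 libraries cannot reach 0.05. The genotype difference ranged from 0.0143 to 0.176 in run cytosines, from 0.102 to 0.337 in isolated ones and from -0.167 to 0.0101 in the gap, the last being without wild-type replicate 3. As a median over cytosines, added after seeing the data, the genotype difference was -0.0319 in run cytosines and 0.666 in isolated ones. The gap then differed between genotypes by -0.698 (exact permutation p = 0.1, the smallest possible), against -0.0896 by means. The cause was not tested. Same-numbered libraries correlated at 0.0642, 0.0439 and 0.160 over the 7732 cytosines of any kind that averaged 5% or more. Differently numbered libraries correlated at -0.124 to 0.0673. All of these values were low, the highest being that of the replicate 3 libraries, and the numbers were not taken as pairs. With the replicate block the differences were 0.0915, 0.181 and -0.0896 (exact sign-flip p = 0.75, 0.5 and 0.25, the last the smallest possible) and edgeR called 0 run cytosines. Fisher's exact test called 2.

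At a level of 20%, 7 run cytosines were called in the Dnmt2-/- libraries (0.0427%, beside 0.00944% of all) and 1 in the wild-type libraries (0.0113%, beside 0.00627%). At a coverage minimum of 20 the calls were 8 (0.0976%, beside 0.0295%) and 1 (0.0269%, beside 0.0224%), so the wild-type share was then close to that of all cytosines. Leaving out 1 library gave 25 to 33 calls in the Dnmt2-/- libraries (0.129% to 0.191%, beside 0.0353% to 0.0374%) and 9 to 17 in the wild-type libraries (0.0932% to 0.169%, beside 0.0240% to 0.0309%). Run cytosines averaging 10% or more numbered 25 to 34 when 1 library was left out. Their share was then 0.293% to 0.399%, beside 0.0624% to 0.0730% of all cytosines. Without both replicate 3 libraries they numbered 25 (0.293%, beside 0.0723% of all). At a coverage minimum of 20 they numbered 9 of 3620 (0.249%, beside 0.0520% of all), in Mycn, Nr2f6 and Ppp1r14b. These 3 alternatives were added after seeing the data. At 10 reads, 1 unconverted read is already a level of 10%, which limits what single cytosines in shallow runs can show.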

Other observations

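Runs that averaged 5% or more outside the 10 named as highest were found in Ndufa13, Coil, Rcc2 and Smad7, and were picked after their values were seen. Ndufa13, which encodes a subunit of mitochondrial complex I, had 3.04%, 2.31% and 5.16% in the Dnmt2-/- libraries and 2.60%, 2.31% and 19.8% in the wild-type libraries at positions 806 to 810. Without wild-type replicate 3 its mean was 3.08%. Coil, which encodes the Cajal body protein coilin, had 1.05%, 3.56% and 9.39% in the Dnmt2-/- libraries and 1.05%, 4.10% and 13.7% in the wild-type libraries at positions 222 to 226, so its highest library in each genotype was replicate 3. Its mean was 2.44% without both replicate 3 libraries and 5.47% with all 6. Smad7, which encodes an inhibitory SMAD of the TGF-beta pathway, had 7.92%, 8.83% and 3.45% in the Dnmt2-/- libraries and 6.32%, 2.08% and 1.82% in the wild-type libraries. In Rcc2 the values were 5.71%, 6.90% and 6.17% in the Dnmt2-/- libraries and 6.35%, 5.73% and 0% in the wild-type libraries, where the 0% was wild-type replicate 3.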
